A study of Caenorhabditis elegans with 40 samples.

Results

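The cysteine cathepsin genes cpr-1, cpr-3, cpr-4, cpr-5, cpr-6, cpz-1, cpz-2 and cpl-1 were followed across 8 groups of whole Caenorhabditis elegans. They were chosen by name, with earlier results of these data known, and all 8 were found among the 42048 features of the deposited gene tables. Medians and shares over all genes are therefore set beside the members as a description only. RNA sequencing libraries were made from 5 samples of each group, 40 in all, with a poly(A)-selecting, strand-marking kit. The mutant groups carry the allele octr-1(ok371), in a gene for a neuronal octopamine receptor of the G protein-coupled type, and the others are the wild-type strain N2. The groups were young octr-1 and young wild-type adults at 20 °C, and old octr-1 and old wild-type adults at 15, 20 and 25 °C. All animals were fed E. coli OP50. Sampling of the old animals took place on adult day 24 for 15 °C, on adult day 14 for 20 °C and on adult day 9 for 25 °C. A comparison of temperatures among old animals is therefore also a comparison of days. The labels name 1 allele and no rescued strain, and they do not say whether the 5 samples of a group came from separate cultures. The p-values are therefore set against a spread between samples that may be technical alone.

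Cysteine cathepsins are papain-type proteases with a cysteine in the active site. They are made as inactive proenzymes, work in lysosomes, yolk granules or the gut lumen, and are held in check by small inhibitor proteins, the cystatins. In the worm they digest bacterial protein in the intestine and turn over the animal's own protein, including yolk. CPR proteins resemble cathepsin B, CPZ proteins cathepsin Z and CPL-1 cathepsin L. cpr-1 encodes a protease of the intestine, and CPR-4 is known as a protein secreted after irradiation. cpz-1 is needed for moulting and cpl-1 for embryonic development and yolk handling. The other members, cpr-3, cpr-5, cpr-6 and cpz-2, are named for their cathepsin B-like or cathepsin Z-like sequence. In the files the genes go by these symbols, and the WBcel235 annotation gives them as WBGene00000781 (cpr-1), WBGene00000783 (cpr-3), WBGene00000784 (cpr-4), WBGene00000785 (cpr-5), WBGene00000786 (cpr-6), WBGene00000788 (cpz-1), WBGene00000789 (cpz-2) and WBGene00000776 (cpl-1). cpr-6 lies on chromosome X, cpz-1 on chromosome I and the remaining 6 on chromosome V. cpz-2 overlaps a protein-coding gene, gcy-34, on the other strand. The strand setting of the counting is not given in the sources used here.

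Each library held 27.9 to 41.0 M reads in genes. Levels are given in CPM, a gene's reads relative to its library's total after scaling of the libraries to one another by the trimmed mean of M values (TMM). gcy-34 stayed at or below 1.36 CPM in every library, and the member with the fewest reads in any library still had 159, cpr-5 in an old octr-1 library at 25 °C. octr-1 itself was read at 0.413 to 0.782 CPM in young mutants, against 1.34 to 1.93 CPM in young wild type, and at 0.719 to 1.57 CPM in old mutants, against 5.23 to 6.78 CPM in old wild type, with no overlap at any temperature. In the table that compares old octr-1 animals at 25 and 20 °C, the 10 columns were named for each other's group, as their identity with columns of other tables showed, and the names were exchanged before testing. In the old octr-1 group at 15 °C, replicates 1 and 3 were lower than the other 3 for cpr-1, cpr-4, cpr-5, cpr-6, cpz-1 and cpl-1. The called differences of members that rest on this group are therefore given with and without them. Sums, orders, correlations, markers, cystatins and the other gene lists are given with all 5 libraries only. Whole animals were sequenced, and fewer cells of a type and less RNA per cell cannot be told apart in such samples.

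The summed level of the 8 genes was highest in young adults, although cpr-3 and cpz-2 had their highest means in old wild type at 25 °C. The TMM factors were 0.678 to 0.750 in young libraries and 1.04 to 1.26 in old ones. This scaling widens the gap between the ages in the values that follow. The 8 genes summed to 5436 ± 331 CPM in young octr-1 and 5780 ± 194 CPM in young wild type (SD, n = 5 each). At 15 °C the old groups reached 595 ± 92.8 CPM in octr-1 and 732 ± 46.2 CPM in wild type. At 20 °C the sum was 1435 ± 57.4 CPM in octr-1 and 2047 ± 145 CPM in wild type, and at 25 °C it was 583 ± 6.78 CPM in octr-1 and 1467 ± 25.9 CPM in wild type. The ranges of the sum did not overlap between the genotypes in old animals at 20 and 25 °C, while they did in old animals at 15 °C and in young animals. Among old wild-type animals the lowest sum was thus at 15 °C, whereas the octr-1 groups at 15 and 25 °C overlapped in range.

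**Figure D1:**
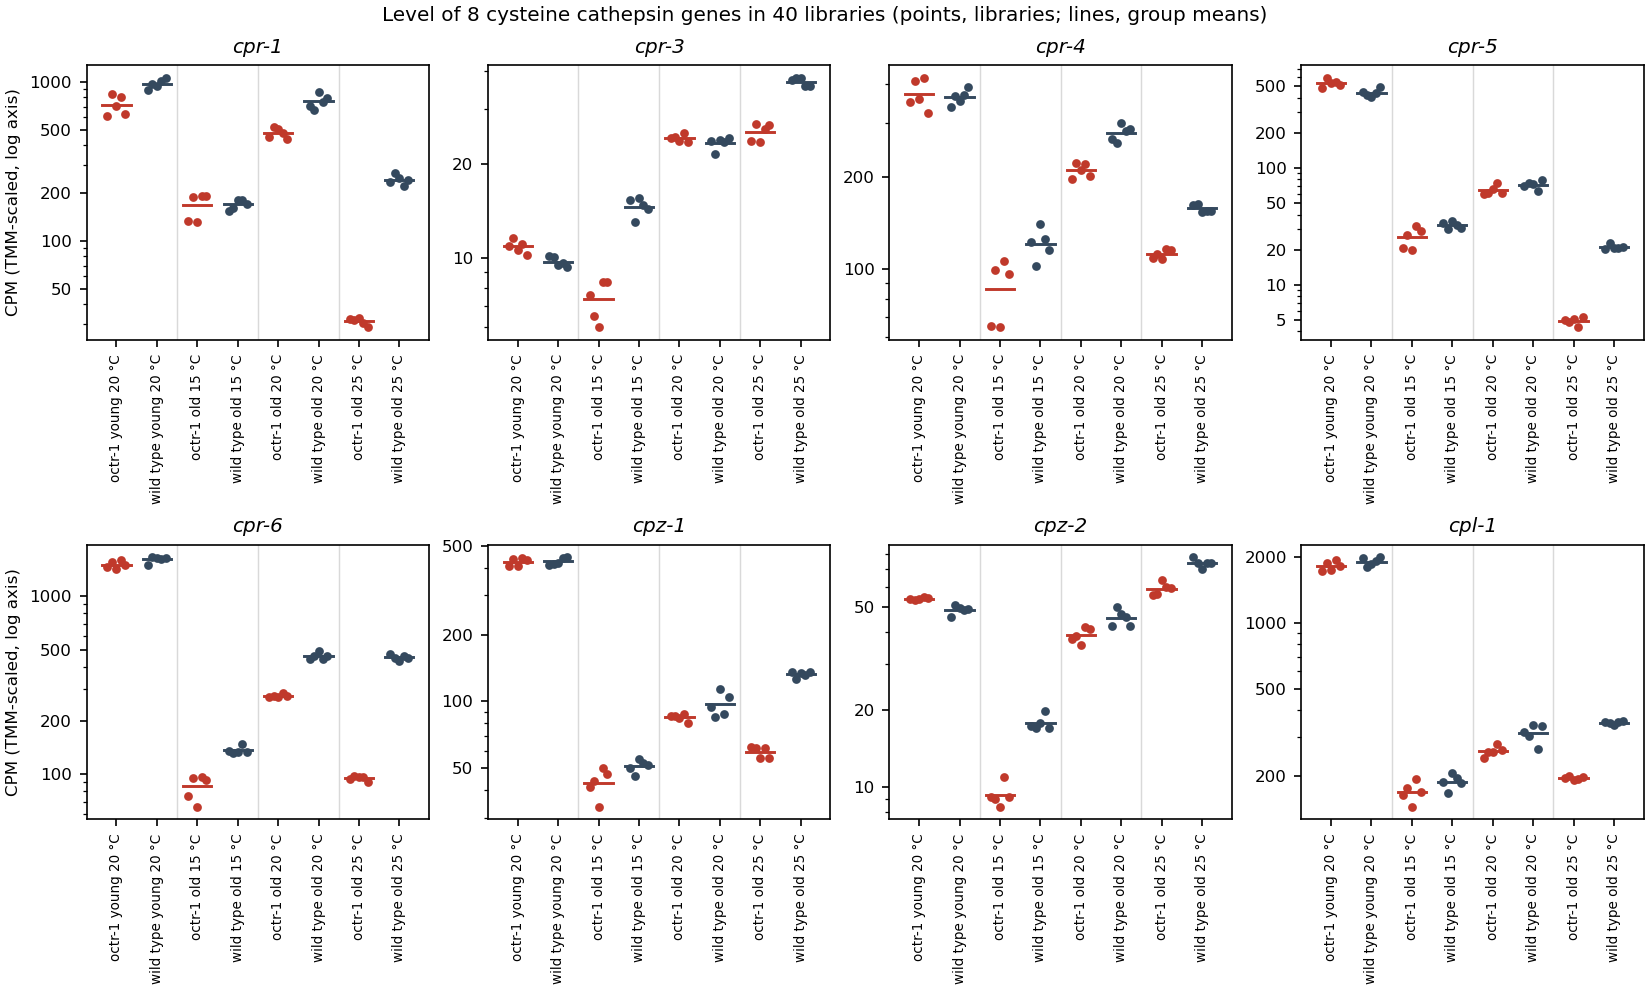
Level of each of the 8 genes in each library, in CPM on log axes with a separate scale for each gene; red points are octr-1 libraries, dark points wild type, and lines the mean of 5 libraries. cpr-1 and cpr-5 have their lowest points in old octr-1 animals at 25 °C, while cpr-3 and cpz-2 have their highest points in old wild type at 25 °C.

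The members differed widely in how far they moved. The mean of the highest group was 109 times that of the lowest for cpr-5, 31.3 times for cpr-1, 18.9 times for cpr-6, 11.2 times for cpl-1, 9.90 times for cpz-1, 7.90 times for cpz-2, 5.0 times for cpr-3 and 4.31 times for cpr-4. Per kilobase of exon, cpl-1 led in young octr-1 at 1528 CPM per kb and in young wild type at 1599 CPM per kb, followed by cpr-6 at 1194 and 1279 CPM per kb in the same groups. In old animals at 20 °C the leader was cpr-1, at 443 CPM per kb in octr-1 and 702 CPM per kb in wild type. In old octr-1 animals at 25 °C cpr-1 stood at 29.0 CPM per kb, below cpl-1, cpr-4, cpr-6, cpz-1 and cpz-2, and cpl-1 led at 165 CPM per kb. Wild-type animals of the same age and temperature had cpr-6 in first place at 359 CPM per kb. cpr-3 was the lowest member per kilobase in both young groups, and cpr-5 the lowest in both old groups at 25 °C.

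**Figure D2:**
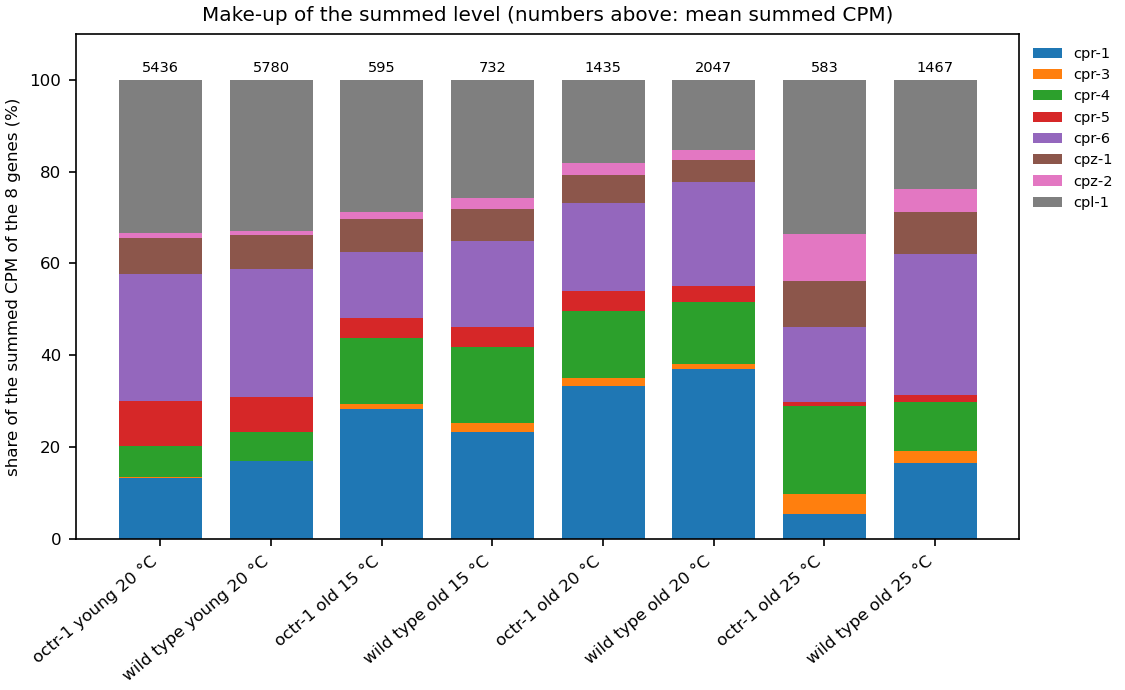
Share of each gene in the summed level of the 8 genes per group, as a percent of the group's summed mean CPM. cpr-1 makes up 33.3% of the sum in old octr-1 and 36.9% in old wild type at 20 °C, against 5.36% in old octr-1 and 16.6% in old wild type at 25 °C.

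The genotype comparison that moved all members was that of old animals at 25 °C. Every one of the 8 genes was lower in octr-1 than in wild type (adjusted p under 0.05, limma-trend with Benjamini-Hochberg adjustment over all genes tested), and none of the 8 had overlapping groups. The share of all genes without overlapping groups was not counted, here or in the comparisons below. The count of called members is to be read beside a wide background, since 76.5% of all genes tested were called in this comparison and 39.7% of all genes tested were called as lower. The median log2 difference of the members was -0.98, beside -0.01 for all genes tested. As the 8 were chosen with earlier results of these data known, this contrast is a description only. The 18 other papain-family genes tested in this comparison had a median of -0.06. The summed level of the 20 such genes found was nevertheless lower in octr-1, at 193 to 205 CPM, against 426 to 437 CPM in wild type.

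Among the cathepsin B-like genes, cpr-1 had 32.4, 32.03, 32.7, 30.4 and 28.7 CPM in the 5 old octr-1 libraries at 25 °C, against 234, 267, 248, 222 and 242 CPM in wild type. Every octr-1 library was far under the lowest wild-type library, a difference of 7.68-fold (log2 -2.94 ± 0.05 SE, limma adjusted p = 1.23e-23). cpr-6 had 93.6, 97.7, 96.6, 95.8 and 90.7 CPM in octr-1, against 475, 450.5, 429.8, 458 and 448 CPM in wild type. It was 4.72-fold lower, also with all octr-1 libraries far under all wild-type ones (log2 -2.24 ± 0.03, adjusted p = 9.73e-26). cpr-5 had 5.03, 4.79, 5.16, 4.34 and 5.28 CPM in octr-1, against 20.2, 22.8, 20.5, 20.8 and 21.1 CPM in wild type, a 4.23-fold difference (log2 -2.08 ± 0.06, adjusted p = 1.42e-19). These were the lowest cpr-5 values of the whole study. cpr-3 and cpr-4 differed less. cpr-3 had 23.6 to 26.99 CPM in octr-1 and 35.6 to 37.9 CPM in wild type, 1.44-fold lower, and cpr-4 had 108 to 116 CPM in octr-1 and 153 to 163 CPM in wild type, 1.39-fold lower.

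Of the cathepsin Z-like genes at 25 °C, cpz-1 had 62.6, 61.9, 55.6, 62.0 and 55.5 CPM in octr-1, against 136, 126, 134, 131 and 136 CPM in wild type. It was 2.21-fold lower in octr-1 (log2 -1.14 ± 0.04, limma adjusted p = 4.19e-18). cpz-2 stood closer, with 55.7 to 63.8 CPM in octr-1 and 70.1 to 78.1 CPM in wild type, a 1.24-fold difference. The cathepsin L-like cpl-1 had 195.6, 200.5, 192, 194 and 197 CPM in octr-1, against 352, 348, 342, 352 and 354 CPM in wild type. It was 1.77-fold lower, and both groups were narrow (log2 -0.82 ± 0.03, adjusted p = 2.17e-18). With library size as the only scaling the median of all genes in this comparison moved to 0.20 (log2), and the 8 genes were still lower and called.

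Markers of the intestine moved with this result. All 9 of the 9 tested were lower in octr-1, and their summed level was 263 to 279 CPM in octr-1 and 444 to 459 CPM in wild type. Markers of the epidermis summed to 5.98 to 7.59 CPM in octr-1 and 65.7 to 68.9 CPM in wild type, with 5 of 6 lower and 1 higher. Body wall muscle markers were lower for 4 of 5, germline markers lower for 5 and higher for 1 of 7, and 1 of 3 coelomocyte markers was lower. Pharynx markers were higher for 5 of 5, neuron markers for 5 of 6 and sperm markers for 5 of 5, and embryo markers were higher for 2 and lower for 2 of 5. No listed marker was at 0 in a whole group, and the part of these tissues in the cathepsin levels was not tested.

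In old animals at 20 °C the same comparison called 6 of the 8 genes, all lower in octr-1, beside 47.5% of all genes tested and 24.7% called as lower. cpr-6 had 269.8, 275, 272, 286 and 273 CPM in octr-1, against 442, 459, 494, 446 and 462 CPM in wild type. It was 1.65-fold lower with no overlap (log2 -0.72 ± 0.04, limma adjusted p = 7.27e-12). cpr-1 had 449.8, 519, 503, 477 and 439 CPM in octr-1, against 710.5, 667, 868, 747 and 791 CPM in wild type, a 1.56-fold difference, again without overlap (log2 -0.64 ± 0.06, adjusted p = 2.79e-07). cpr-4 was 1.30-fold lower, at 197 to 222 CPM in octr-1 and 257 to 299.9 CPM in wild type.

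The other called differences at 20 °C were small. cpl-1 was 1.19-fold lower in octr-1 (242 to 279.6 CPM, against 266 to 342 CPM in wild type), cpz-2 1.15-fold lower (35.6 to 41.7 CPM, against 42.1 to 49.9 CPM) and cpz-1 1.13-fold lower (80.2 to 87.6 CPM, against 85.5 to 114 CPM). Groups overlapped for cpl-1 and cpz-1. Those of cpz-2 were apart in CPM but overlapped in the values scaled by the authors, which limma tested. The cpz-1 call was lost when any 1 of 6 libraries was left out, namely octr-1 replicates 1, 2, 3 and 5 and wild-type replicates 3 and 5, with adjusted p of 0.0517 to 0.0931. cpr-5 did not pass the test, with a log2 difference of -0.14 (95% interval -0.26 to -0.02, limma adjusted p = 0.0631). It passed without octr-1 replicate 4 (adjusted p = 0.0101) or wild-type replicate 4 (adjusted p = 0.0104). cpr-3 stood at 23.5 to 25.2 CPM in octr-1 and 21.5 to 24.2 CPM in wild type, with a log2 difference of 0.08 (-0.02 to 0.17, adjusted p = 0.222). Of the intestine markers 2 were higher and 4 lower among 9 tested, and their sums overlapped, at 364 to 386 CPM in octr-1 and 356 to 398 CPM in wild type. Epidermis markers, 2 of 6 lower and none higher, summed to 24.0 to 28.0 CPM in octr-1 and 45.3 to 56.8 CPM in wild type. Sperm markers, 4 of 5 higher, summed to 19.02 to 21.8 CPM in octr-1 and 8.90 to 12.5 CPM in wild type. The part of these tissues was not tested, and the sums of the other 6 marker lists overlapped.

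At 15 °C, 6 of the 8 genes were called in old animals, all lower in octr-1, beside 51.1% of all genes tested and 27% called as lower. The largest differences were in cpr-3 and cpz-2, of which cpz-2 had differed 1.15-fold at 20 °C and cpr-3 had not passed the test there. cpr-3 had 7.62, 6.52, 5.99, 8.37 and 8.38 CPM in octr-1, against 15.3, 13.1, 15.6, 14.8 and 14.4 CPM in wild type. Every octr-1 library was below every wild-type library, 1.99-fold on average (log2 -0.99 ± 0.09, limma adjusted p = 6.05e-08). cpz-2 had 9.21, 9.01, 8.43, 11.01 and 9.20 CPM in octr-1, against 17.3, 17.0, 17.8, 19.8 and 17.0 CPM in wild type, a 1.90-fold difference without overlap (log2 -0.93 ± 0.07, adjusted p = 6.62e-09). cpr-6 was 1.61-fold lower, with 75.7, 95.3, 65.8, 96.98 and 92.6 CPM in octr-1, against 134, 131, 133, 147 and 134 CPM in wild type (log2 -0.69 ± 0.11, adjusted p = 0.000417).

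cpr-1 did not follow this direction at 15 °C. It had 134, 190.1, 132, 193 and 192 CPM in octr-1, against 155, 162, 181, 182 and 170.0 CPM in wild type. Replicates 1 and 3 of octr-1 lay below all wild-type libraries and the other 3 above them, so that the log2 difference was -0.03 (95% interval -0.29 to 0.23, limma adjusted p = 0.853). Without those 2 libraries, a choice made after seeing the values, cpr-1 was higher in octr-1 by 0.18 (log2, adjusted p = 0.00589). cpr-4, cpr-5 and cpz-1 were 1.43-fold, 1.29-fold and 1.2-fold lower in octr-1, with adjusted p of 0.0336, 0.0327 and 0.034 and with overlapping groups.

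These last calls were fragile. The cpr-4 call was lost without octr-1 replicate 1 or 3 or wild-type replicate 1, 3, 4 or 5 (limma adjusted p = 0.055 to 0.0744), and the cpr-5 call without octr-1 replicate 1 or wild-type replicate 1, 3 or 4 (0.0603 to 0.0804). That of cpz-1 was lost without octr-1 replicate 1 or 2 or wild-type replicate 1, 3, 4 or 5 (0.0502 to 0.0837). With no filter on low values all 3 calls were lost (0.0585, 0.0736 and 0.0623 for cpr-4, cpr-5 and cpz-1). cpl-1 had 145 to 193 CPM in octr-1 and 167 to 205 CPM in wild type, a log2 difference of -0.16 (-0.29 to -0.02, adjusted p = 0.0786) that passed without octr-1 replicate 4 (0.0114) or wild-type replicate 2 (0.0225), and with all 40 libraries in 1 edgeR fit (0.0281) or library size as the only scaling (0.0478). Without octr-1 replicates 1 and 3 the log2 differences of cpr-3, cpr-6 and cpz-2 were -0.92, -0.51 and -0.87 and stayed past the threshold, as did that of cpr-4 at -0.26, while cpr-5 (-0.16, adjusted p = 0.0564) and cpz-1 (-0.12, adjusted p = 0.0941) did not. All 9 intestine markers tested were lower in octr-1, with sums of 85.0 to 120 CPM in octr-1 and 166 to 189 CPM in wild type. Epidermis markers (4 lower and 1 higher of 6) summed to 15.2 to 17.95 CPM in octr-1 and 26.1 to 32.03 CPM in wild type. Pharynx markers (2 of 5 lower) summed to 13.8 to 17.8 CPM in octr-1 and 21.7 to 25.2 CPM in wild type, and coelomocyte markers (2 of 3 lower) to 4.57 to 5.58 CPM in octr-1 and 7.07 to 8.41 CPM in wild type. Sperm markers (4 of 5 higher) stood at 21.1 to 27.9 CPM in octr-1 and 13.03 to 16.8 CPM in wild type. The sums of germline, body wall muscle, neuron and embryo markers overlapped, and the part of all these tissues in the cathepsin levels was not tested.

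Young animals of the genotypes differed least. Of the 8 genes 4 were called, a share near the 43.6% of all genes tested (19.6% higher, 24.0% lower), and none by more than 1.41-fold. cpr-1 was lower in octr-1, with 615, 846, 708.5, 799.5 and 625 CPM, against 888, 975, 947, 1014 and 1063 CPM in wild type. The groups did not overlap (log2 -0.49 ± 0.09, limma adjusted p = 0.00105). cpr-5 was the one gene higher in octr-1, with 484, 591, 533, 547 and 513 CPM, against 446, 424, 401, 437 and 491 CPM in wild type, a 1.18-fold difference with 1 octr-1 library inside the wild-type range (log2 0.24 ± 0.05, adjusted p = 0.00143). cpr-6 was 1.10-fold lower and cpl-1 1.08-fold lower, both with overlapping groups.

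The cpl-1 call in young animals (limma adjusted p = 0.0403) was lost without octr-1 replicate 1, 2, 3 or 5 or wild-type replicate 1, 3, 4 or 5, with adjusted p of 0.0519 to 0.104. It was also lost with edgeR under TMM (0.139) or RLE scaling (0.0767), with library size only (0.914) and with all 40 libraries in 1 fit (0.251). The cpr-6 call was lost under the last 2 settings (0.422 and 0.113). cpz-2 had 53.3 to 54.7 CPM in octr-1 and 45.6 to 50.9 CPM in wild type, and its log2 difference of 0.11 (95% interval 0.02 to 0.19) just missed the threshold (adjusted p = 0.0536). It passed without wild-type replicate 2 (0.0466), and with edgeR (0.0163 under TMM, 0.0016 with library size only) and DESeq2 (0.0239). cpr-3 (log2 0.12, -0.01 to 0.25, adjusted p = 0.138), cpr-4 (-0.01, -0.14 to 0.11, adjusted p = 0.896) and cpz-1 (-0.05, -0.12 to 0.03, adjusted p = 0.341) did not pass, although cpr-3 did with library size as the only scaling (log2 0.22, adjusted p = 0.0183). Intestine markers were higher for 4 and lower for 2 of the 8 tested, with sums of 2007 to 2220 CPM in octr-1 and 1701 to 1944 CPM in wild type. Germline markers were lower for 6 of 7 (4239 to 4405 CPM in octr-1, 4406 to 4981 CPM in wild type) and coelomocyte markers for 2 of 3 (5.82 to 7.29 CPM in octr-1, 7.83 to 9.77 CPM in wild type). Embryo markers were higher for 2 of 5 (15.8 to 19.3 CPM in octr-1, 13.3 to 15.6 CPM in wild type). The sums of the other 5 marker lists overlapped, and the part of these tissues was not tested.

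**Figure D3:**
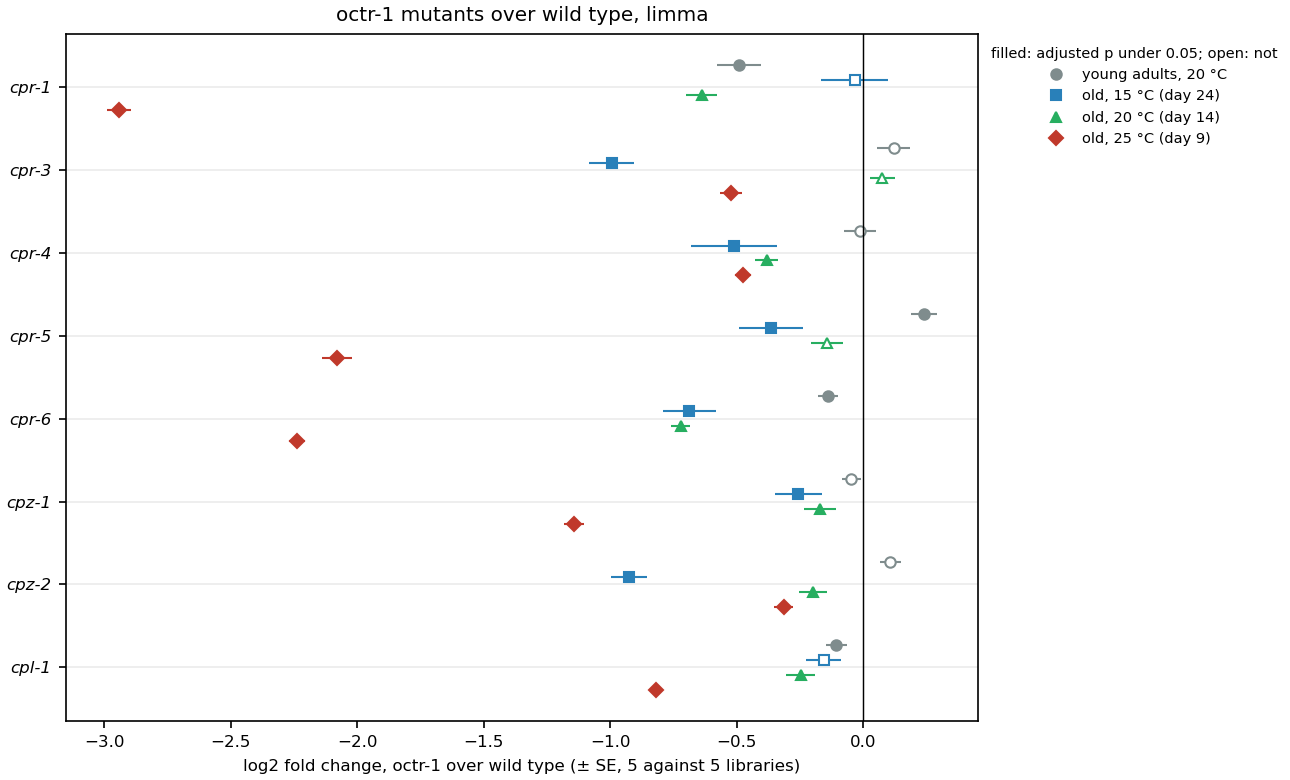
Log2 fold change of octr-1 over wild type for each gene in the young groups (20 °C) and the old groups (15, 20 and 25 °C), with bars of 1 standard error (limma, 5 against 5 libraries); filled symbols passed an adjusted p of 0.05. At 25 °C all 8 symbols lie left of 0, with cpr-1 at -2.94, cpr-6 at -2.24 and cpr-5 at -2.08.

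Whether the genotype difference itself changed between conditions was tested with edgeR's quasi-likelihood test of the interaction. Between 25 and 20 °C in old animals the octr-1 effect was more negative at 25 °C for 6 of the 8 genes, beside 54.5% of all genes called and 26.5% in that direction. The difference of the log2 effects was -2.26 ± 0.09 for cpr-1 (edgeR adjusted p = 3.78e-16), -1.90 ± 0.09 for cpr-5 (3.66e-18), -1.47 ± 0.05 for cpr-6 (1.17e-23), -0.92 for cpz-1, -0.55 for cpr-3 and -0.53 for cpl-1. For cpr-4 it was -0.05 (95% interval -0.16 to 0.06, adjusted p = 0.446) and for cpz-2 -0.07 (-0.20 to 0.06, adjusted p = 0.373).

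Between 15 and 20 °C, 3 genes passed, beside 20.3% of all genes (12.4% more negative at 15 °C, 7.85% less). The effect at 15 °C was more negative by 1.08 ± 0.10 (log2) for cpr-3 (edgeR adjusted p = 1.04e-09) and by 0.74 ± 0.09 for cpz-2 (3.47e-07), and it was less negative by 0.61 ± 0.15 for cpr-1 (0.00862). Without octr-1 replicates 1 and 3 these differences were -0.99, -0.67 and 0.82, and cpr-6 then passed as well at 0.21 (adjusted p = 0.00768). Between 15 and 25 °C the effect at 15 °C was less negative for cpr-1 (2.92), cpr-5 (1.72), cpr-6 (1.55), cpz-1 (0.88) and cpl-1 (0.66) and more negative for cpz-2 (-0.62) and cpr-3 (-0.48), 7 of 8 genes beside 57% of all genes called, 26.6% as less and 30.4% as more negative. The values were between 0.72 and 3.09 for the first 5 genes without those libraries, -0.58 for cpz-2 and -0.42 for cpr-3, and cpr-4, at -0.02 (adjusted p = 0.918) with them, came to 0.18 (adjusted p = 0.0365).

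Between old and young animals at 20 °C, 4 genes passed, all with a more negative octr-1 effect in old animals, beside 27.6% of all genes called and 16.6% in that direction. These were cpr-6 at -0.59 (edgeR adjusted p = 2.1e-09), cpr-5 at -0.39 (0.00197), cpr-4 at -0.39 (0.0011) and cpz-2 at -0.32 (0.000953). cpr-5 is thus a gene that was higher in octr-1 in young animals and not in old ones, with the difference between the ages itself past the threshold. For cpr-1 the difference was -0.17 (95% interval -0.40 to 0.07, adjusted p = 0.326), and cpr-3, cpz-1 and cpl-1 did not pass either. That of cpl-1, at -0.16 (adjusted p = 0.121), was -0.21 (0.0126) without old wild-type replicate 4. With library size as the only scaling cpz-1 and cpl-1 passed as well, at -0.21 (0.0197) and -0.22 (0.00904).

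The genes of old wild-type animals differed between temperatures, and so also between days of adulthood, in more than 1 pattern. At 15 °C all 8 were lower than at 20 °C, beside 63.9% of all genes called and 33.4% as lower. None of the 8 had overlapping groups, and the share of all genes without overlap was not counted. The folds were 4.37 for cpr-1, 3.34 for cpr-6, 2.51 for cpz-2, 2.27 for cpr-4, 2.18 for cpr-5, 1.86 for cpz-1, 1.64 for cpl-1 and 1.58 for cpr-3, and the largest limma adjusted p was 5.22e-08. Against 25 °C, 7 of the 8 were lower at 15 °C, from 1.29-fold for cpr-4 to 4.10-fold for cpz-2, beside 79.0% of all genes called, 38.2% as higher and 40.8% as lower. The exception was cpr-5, with 33.9, 29.8, 35.5, 32.8 and 30.6 CPM at 15 °C, against 20.2, 22.8, 20.5, 20.8 and 21.1 CPM at 25 °C. It was 1.56-fold higher at 15 °C without overlap (limma adjusted p = 1.29e-10).

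Old wild-type animals at 25 °C, set against 20 °C, split the family. cpr-1 was 3.18-fold, cpr-5 3.49-fold and cpr-4 1.80-fold lower at 25 °C, while cpz-2 was 1.60-fold, cpr-3 1.54-fold and cpz-1 1.33-fold higher (edgeR, all without overlap). In total 4 were higher and 3 lower, beside 63.4% of all genes called (30% higher, 33.5% lower). cpl-1 was the weakest call, 1.09-fold higher (log2 0.12 ± 0.05, edgeR adjusted p = 0.0429), and it was lost without wild-type replicate 1 or 2 at 20 °C or replicate 1, 2, 4 or 5 at 25 °C (adjusted p = 0.0537 to 0.1). cpr-6 had 430 to 475 CPM at 25 °C and 442 to 494 CPM at 20 °C, with a log2 difference of -0.06 (95% interval -0.13 to 0.01, adjusted p = 0.173).

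In octr-1 mutants the 25 °C group stood further from 20 °C for cpr-1, cpr-5 and cpr-6 than in wild type. For cpr-3 and cpz-2 it did not. cpr-1 was 15.4-fold lower at 25 °C (log2 -3.95 ± 0.05, limma adjusted p = 2.25e-27) and cpr-5 13.1-fold lower (log2 -3.72 ± 0.06, adjusted p = 8e-25), the 2 largest temperature differences of the family among old animals in these comparisons. For cpr-5 that is 5.03, 4.79, 5.16, 4.34 and 5.28 CPM at 25 °C, against 59.4, 61.0, 66.6, 73.7 and 61.0 CPM at 20 °C. cpr-6 was 2.93-fold, cpr-4 1.89-fold, cpz-1 1.44-fold and cpl-1 1.34-fold lower, and cpz-2 was 1.5-fold higher, 1 higher and 6 lower beside 74.6% of all genes called (37.3% higher, 37.4% lower). cpr-3 differed by 0.05 (log2, 95% interval -0.05 to 0.14, adjusted p = 0.369). With library size as the only scaling the median of all genes moved to 0.23, and cpr-3 was then called higher, by 0.27. The authors' deposited table gives cpr-1 a log2 fold change of -3.95 here, which has the sign of the exchanged column names. The octr-1 and wild-type values set side by side show cpz-1 and cpl-1 lower at 25 °C in octr-1 and higher in wild type, and the interaction test above covers that difference.

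At 15 °C octr-1 mutants had all 8 genes lower than at 20 °C, from 1.53-fold for cpl-1 to 4.13-fold for cpz-2, beside 66.5% of all genes called and 34.8% as lower. None of the 8 had overlapping groups, and the share of all genes without overlap was not counted. Without replicates 1 and 3 at 15 °C all 8 were still called lower, with log2 differences of -0.52 for cpl-1 to -1.99 for cpz-2. Those of cpr-1 and cpr-4 were then -1.30 and -1.05, against -1.52 and -1.31 with all libraries. Set against 25 °C, the 15 °C mutants had cpr-1 5.32-fold higher (log2 2.41 ± 0.13, limma adjusted p = 3.83e-08) and cpr-5 5.11-fold higher (log2 2.35 ± 0.12, adjusted p = 3.19e-11). cpz-2 was 6.28-fold and cpr-3 3.45-fold lower, and cpz-1, cpr-4 and cpl-1 were lower by 1.39-fold or less, with overlapping groups for cpl-1, which makes 2 higher and 5 lower beside 78.9% of all genes called (38.6% higher, 40.4% lower). The cpr-4 call (adjusted p = 0.0397) was lost without octr-1 replicate 1 or 3 at 15 °C or any 1 replicate at 25 °C, 7 libraries in all, with adjusted p of 0.0597 to 0.0771, and also with no filter (0.0682) or with edgeR under TMM (0.0501) or RLE scaling (0.0609). cpr-6 differed by -0.17 (95% interval -0.37 to 0.03, adjusted p = 0.155), and by 0.01 (adjusted p = 0.794) without replicates 1 and 3 at 15 °C. It was called lower, at -0.33 (0.00939), with library size as the only scaling. Without these 2 libraries the remaining 7 calls were 2.63 and 2.57 (log2) for cpr-1 and cpr-5 and -0.12 to -2.59 for the others.

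Intestine markers also differed with temperature. At 15 °C all 9 were lower than at 20 °C and lower than at 25 °C in each genotype. The sums given above for 15 °C compare with 364 to 386 CPM in octr-1 and 356 to 398 CPM in wild type at 20 °C, and with 263 to 279 CPM in octr-1 and 444 to 459 CPM in wild type at 25 °C. At 25 °C against 20 °C, 1 was higher and 6 lower in octr-1, and 5 were higher and 2 lower in wild type. Epidermis sums, given above, did not overlap between any of the 3 temperatures in either genotype. Pharynx markers summed to 97.8 to 110.5 CPM in old octr-1 animals at 25 °C, against 32.4 to 34.5 CPM at 20 °C. The part of these tissues in the temperature differences of the cathepsin genes was not tested.

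**Figure D4:**
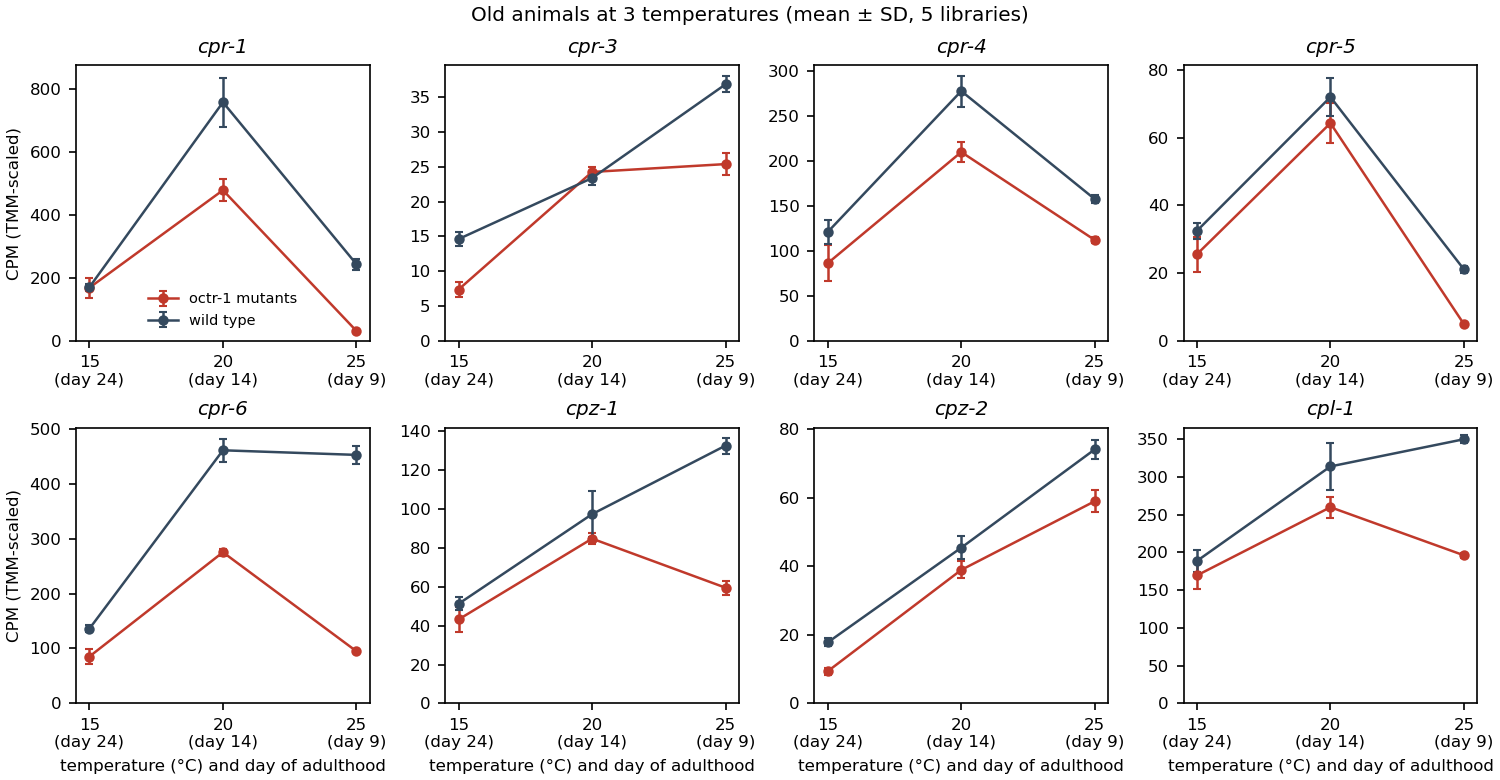
Mean level of each gene in old animals at 15, 20 and 25 °C, in CPM on linear axes with separate scales, for octr-1 (red) and wild type (dark); bars are 1 SD of 5 libraries. cpr-1, cpr-4 and cpr-5 peak at 20 °C in both genotypes, whereas cpz-2 has its highest mean at 25 °C in both.

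Age at 20 °C was compared with edgeR on recovered reads. Old octr-1 animals (day 14) had 7 of the 8 genes lower and 1 higher than young ones, beside 85.3% of all genes called (40.2% lower, 45.1% higher). Old wild type had 6 lower and 1 higher, beside 85.1% (39.2% lower, 45.9% higher). The number called in either direction is near the background, while the share of members called lower is above it in each genotype. The sizes for 4 genes were far from the median of all genes, which was 0.07 (log2) in octr-1 and 0.09 in wild type. cpr-5 had 59.4, 61.0, 66.6, 73.7 and 61.0 CPM in old octr-1, against 484, 591, 533, 547 and 513 CPM in young octr-1. It was 8.16-fold lower (log2 -3.03 ± 0.07, edgeR adjusted p = 6.08e-15), and in wild type it was 6.12-fold lower (log2 -2.61 ± 0.06), at 69.7, 74.2, 73.6, 63.7 and 79.1 CPM in old animals, against 446, 424, 401, 437 and 491 CPM in young ones.

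cpl-1 fell nearly as far with age. Old octr-1 animals had 242, 257, 258, 279.6 and 263 CPM, against 1720, 1871, 1747, 1942 and 1810 CPM in young octr-1. The difference was 6.89-fold (log2 -2.79 ± 0.04), beside 6.09-fold in wild type (log2 -2.61 ± 0.06). cpr-6 was 5.38-fold lower in old octr-1 and 3.51-fold lower in old wild type. cpz-1 was 4.94-fold lower in old octr-1 and 4.41-fold lower in old wild type. For cpr-1 the fall was 1.48-fold in octr-1 and 1.30-fold in wild type, and for cpr-4 it was 1.74-fold in octr-1 and 1.313-fold in wild type.

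cpr-3 was the one member higher with age. It had 24.3, 24.5, 23.8, 25.2 and 23.5 CPM in old octr-1, against 10.95, 11.6, 10.6, 11.1 and 10.2 CPM in young octr-1, 2.26-fold higher (log2 1.18 ± 0.05, edgeR adjusted p = 2.98e-15). In wild type it was 2.39-fold higher (log2 1.26 ± 0.06), at 21.5 to 24.2 CPM in old animals, against 9.33 to 10.14 CPM in young ones. cpz-2 was 1.36-fold lower in old octr-1, with no overlap. In wild type its log2 difference was -0.11 (95% interval -0.21 to 0.00, edgeR adjusted p = 0.0733), and it passed without young wild-type replicate 1 (adjusted p = 0.0377), with no filter (0.0383), with DESeq2 (0.0245) and with all 40 libraries in 1 fit (0.0195).

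The scaling matters for the small age differences. With library size as the only scaling, the median of all genes moved to 0.61 in octr-1 and 0.68 in wild type. cpr-1, cpr-4 and cpz-2 were then higher in old wild type (0.21, 0.19 and 0.48), while in octr-1 cpz-2 stood at 0.09 and cpr-1 no longer passed, at -0.03 (edgeR adjusted p = 0.761). cpr-5, cpl-1, cpr-6 and cpz-1 were lower under both scalings, in each genotype, and cpr-3 was higher. Intestine markers were lower for 8 and higher for 1 of 9 in each genotype, with sums of 364 to 386 CPM in old octr-1 and 2007 to 2220 CPM in young octr-1, and of 356 to 398 CPM in old and 1701 to 1944 CPM in young wild type. Epidermis markers summed to 24.0 to 28.0 CPM in old octr-1 and 748 to 998 CPM in young octr-1, and to 45.3 to 56.8 CPM in old and 604 to 892 CPM in young wild type. Of the 6, 1 was higher and 3 lower in old octr-1, and 3 were higher and 2 lower in old wild type. Neuron markers were higher for 6 of 6 in each genotype. Body wall muscle markers were lower for 4 of 5 in old octr-1 and 5 of 5 in old wild type, and germline markers for 6 of 7 in old octr-1 and 7 of 7 in old wild type. The part of these tissues was not tested.

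**Figure D5:**
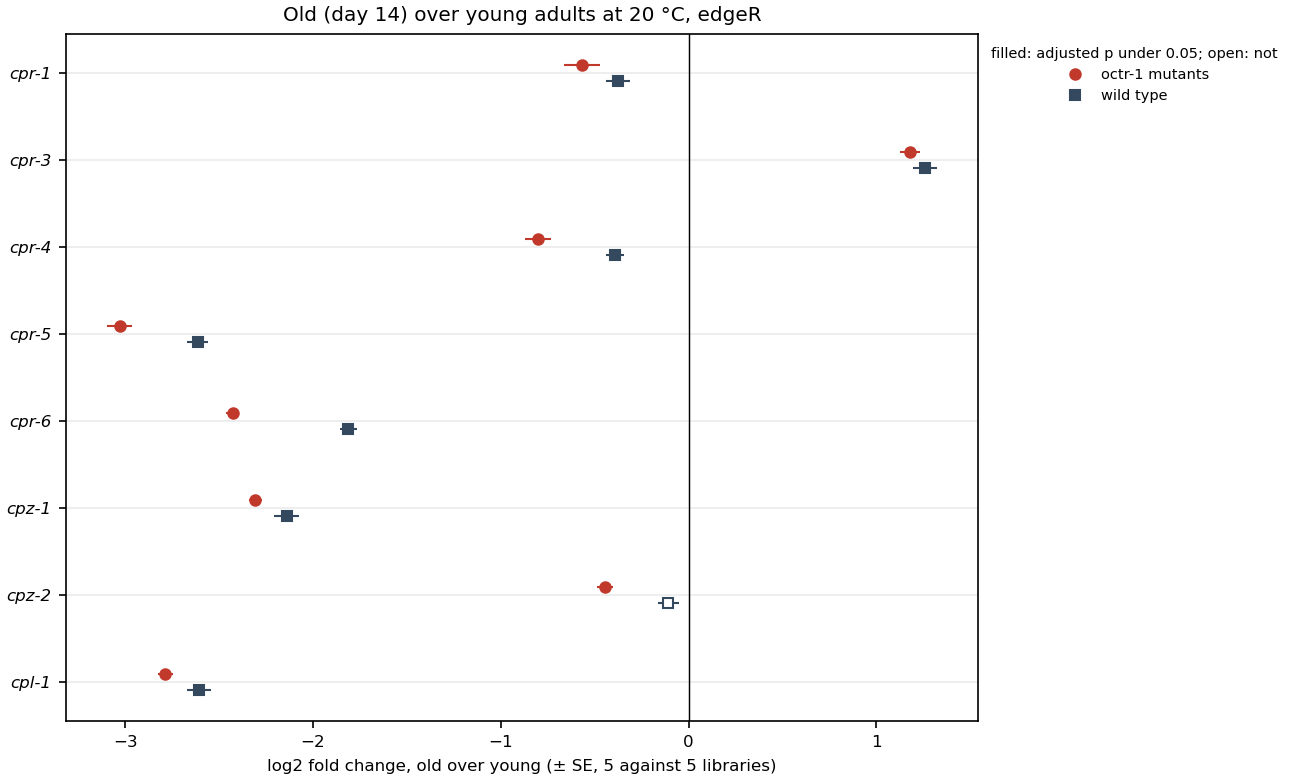
Log2 fold change of old (day 14) over young adults at 20 °C for each gene in octr-1 and wild type, with bars of 1 standard error (edgeR, 5 against 5 libraries). cpr-5, cpl-1, cpz-1 and cpr-6 lie left of -1.8 in both genotypes, cpr-3 lies right of 1, and the open symbol of cpz-2 in wild type did not pass an adjusted p of 0.05.

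Ordered by level over the 8 groups, the genes fell into different series. cpr-5, cpr-6, cpz-1 and cpl-1 had both young groups on top, with ranges of the 2 young groups that overlapped for each of these genes. The next groups were old wild type at 20 °C for cpr-5 and cpr-6 and old wild type at 25 °C for cpz-1 and cpl-1. For cpr-6 and cpl-1 the ranges of old wild type at 20 and 25 °C overlapped with each other. For cpr-5 old wild type and old octr-1 at 20 °C overlapped. cpr-1 ran from young wild type through old wild type at 20 °C and young octr-1, whose ranges overlapped with each other, to old octr-1 at 20 °C, old wild type at 25 °C, the overlapping groups at 15 °C and last old octr-1 at 25 °C. cpr-4 had overlapping young groups on top and old octr-1 at 15 °C last. cpr-3 and cpz-2 both began with old wild type at 25 °C, followed by old octr-1 at 25 °C, and both ended with old octr-1 at 15 °C. Of the 7 neighbouring pairs of groups in each order, ranges overlapped in 5 for cpl-1, 4 for cpr-5, 3 for cpr-6 and cpz-1, 2 for cpr-1, cpr-3 and cpr-4, and 1 for cpz-2.

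Across libraries, log2 CPM of cpz-1 and cpl-1 ran closely together (Pearson r = 0.985 over 40 libraries, 0.977 over the 30 old ones), as did that of cpr-6 and cpl-1 (0.938 and 0.956). cpr-1 and cpr-5 had r = 0.894 over all libraries and 0.961 over the old ones. cpr-3 and cpz-2 had r = 0.625 and 0.969. cpr-6 and cpz-1 had 0.967 and 0.923, and cpr-4 and cpr-6 had 0.936 and 0.857. The lowest of the 28 pairs over all libraries was cpr-3 with cpr-5 (-0.49), and over the old ones cpr-5 with cpz-2 (-0.21). These values describe points that share groups of 5 and their differences in age, temperature and genotype, and no test was made.

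Outside the family, the genes with the most similar series over the 40 libraries, by Pearson r of log2 CPM among 17226 genes, were as follows. cpr-1 was nearest to asp-14 (0.975), ilys-5 (0.970) and spp-8 (0.969), and cpr-4 to F08A8.2 (0.979), cyp-35A2 (0.969) and F49C12.7 (0.967). cpr-5 was nearest to hsp-3 (0.986), spp-23 (0.985) and C07D8.6 (0.984), and cpr-6 to alh-12 (0.997), W02B12.1 (0.995) and the yolk protein gene vit-2 (0.995). cpr-3 had F21A3.11 (0.968), bath-47 (0.963) and far-6 (0.958) as its nearest genes. For cpz-1 they were the muscle genes tnt-2 (0.997) and unc-27 (0.996) with T25F10.6 (0.995), for cpz-2 ZK550.6 (0.987), F54C9.3 (0.981) and fat-2 (0.980), and for cpl-1 par-5 (0.996), zip-3 (0.995) and mccc-1 (0.994).

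The cystatins, inhibitors of these proteases, were higher with age, as was cpr-3. The other members called with age under TMM scaling were lower. Among all genes tested, 45.1% were called higher with age in octr-1 and 45.9% in wild type. cpi-1 had 684 to 765 CPM in old octr-1 and 42.4 to 56.2 CPM in young octr-1, and 960 to 1180 CPM in old and 48.2 to 51.3 CPM in young wild type. It rose 15.2-fold in octr-1 (log2 3.93 ± 0.06) and 20.9-fold in wild type (log2 4.38 ± 0.07, edgeR). cpi-2 rose 1.30-fold in octr-1 and 1.23-fold in wild type. Between genotypes, cpi-1 was lower in old octr-1 by 2.19-fold at 15 °C, 1.37-fold at 20 °C and 1.30-fold at 25 °C (limma), and in young animals it differed by -0.05 (log2, limma adjusted p = 0.572). cpi-2 was 1.11-fold lower in young octr-1, a call that library size as the only scaling ended, 1.16-fold lower in old octr-1 at 15 °C, 1.06-fold higher at 25 °C, and at 20 °C the difference did not pass (adjusted p = 0.37).

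Of 20 other papain-family genes found in the files, 18 could be tested in old animals at 25 °C, and 5 were higher and 7 lower in octr-1, with a median log2 difference of -0.06, beside -0.01 for all genes. Of all genes 76.5% were called in this comparison, 39.7% as lower. The members of smallest p were F57F5.1 (15.4-fold lower), Y40H7A.10 (9.52-fold lower) and R09F10.1 (2.50-fold lower). At 20 °C 5 were higher and 5 lower of 18, at 15 °C 3 higher and 8 lower of 17, and in young animals 4 higher and none lower of 11. Their summed level at 20 °C was 294 to 306 CPM in old octr-1 and 371 to 429 CPM in old wild type. At 15 °C it was 226 to 270 CPM in old octr-1 and 294 to 315 CPM in old wild type. With age the papain-family genes were higher for 10 and lower for 6 of 17 in octr-1, and higher for 8 and lower for 6 of 14 in wild type. Of all genes 45.1% were called higher and 40.2% lower with age in octr-1, and 45.9% higher and 39.2% lower in wild type. The summed level of the 20 papain-family genes was lower with age, unlike the balance of these counts. It was 294 to 306 CPM in old octr-1 at 20 °C and 1543 to 1990 CPM in young octr-1. In wild type it was 371 to 429 CPM in old animals at 20 °C and 1682 to 2061 CPM in young ones. With library size as the only scaling 6 were higher and 5 lower in old octr-1 at 25 °C, 5 were higher and none lower in young octr-1, and with age 8 were higher and 4 lower in wild type.

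Lysosomal membrane and hydrolase genes, 36 of which were found, were lower in octr-1 for 29 and higher for 2 of 36 in old animals at 25 °C, with a median log2 difference of -1.19, beside -0.01 for all genes. Of all genes 76.5% were called in this comparison, 39.7% as lower. asp-2, asp-4 and asp-5, which encode aspartic proteases, were 13.5-fold, 3.83-fold and 5.16-fold lower. With library size as the only scaling 26 were lower and 7 higher. At 20 °C 21 were lower and 4 higher of 36 (median -0.23), and at 15 °C 18 lower and 3 higher of 35 (median -0.26). Young octr-1 animals had 12 higher and 2 lower of 35, led by cln-3.3 (2.30-fold higher), lmp-2 (1.71-fold higher) and hex-1 (1.399-fold higher), and 17 higher and 1 lower with library size as the only scaling. In the limma test 19.6% of all genes were called higher and 24.0% lower in young octr-1. Between 25 and 20 °C, 25 were lower and 5 higher in octr-1, and 19 were lower and 8 higher in wild type. Scaled by library size only, 22 of the lysosomal genes were lower and 11 higher in octr-1, and 16 lower and 11 higher in wild type.

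Among 15 regulators named for gut, lysosome or stress genes, elt-2, the GATA factor of the intestine, was lower in octr-1 in each of the 4 genotype comparisons. It had 1.36 to 1.99 CPM in old octr-1 and 3.97 to 4.16 CPM in old wild type at 15 °C, 4.75 to 5.98 CPM in old octr-1 and 7.36 to 8.95 CPM in old wild type at 20 °C, and 5.25 to 5.96 CPM in old octr-1 and 10.8 to 12.7 CPM in old wild type at 25 °C. In young animals it had 13.2 to 14.4 CPM in octr-1 and 14.5 to 18.3 CPM in wild type. The folds were 2.27 at 15 °C, 1.496 at 20 °C, 1.97 at 25 °C and 1.26 in young animals (limma adjusted p = 9.66e-08, 8.1e-06, 9.46e-13 and 0.00101). elt-2 is also one of the 9 intestine markers. Of the whole list, 1 was higher and 8 lower of 15 at 25 °C (7 higher and 4 lower with library size as the only scaling), 5 higher and 1 lower of 15 at 20 °C, 8 higher and 3 lower of 14 at 15 °C, and 3 higher and 3 lower of 15 in young animals, where library size as the only scaling gave 5 higher and 1 lower. These counts are to be read beside the shares of all genes called that are given above for each comparison. For the old genotype comparisons those are the share called in either direction and the share called lower. The share called higher is not given there, so the higher counts have no direct match.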

How the data were processed

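The deposited tables, 9 in number with 10 sample columns each, hold signal per gene, which is the gene count that the authors divided by size factors within each table. Per the submitters' processing notes, reads went through bcl2fastq, HISAT2 2.2.1, featureCounts and DESeq2 1.31.16, with genome build ce10. The tables also hold log2 fold changes and p-values that the authors computed, of which 1 log2 fold change is quoted. No coordinates are given, since the annotation used here is of build WBcel235. How reads that map to several places were counted is not given in the sources used here.

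Whole reads were recovered from every column, with 100% of values whole within 0.001 reads, and 90 columns came down to 40 libraries. For the 9 comparisons that have a table, log2(value + 1) was tested there with limma-trend (limma 3.58.1, robust), keeping genes whose value reached 10 in 5 or more libraries. Such fold changes understate the change of low genes. For the 3 comparisons without a table and the 4 tests of a difference between genotype effects, edgeR 4.0.16 (quasi-likelihood, TMM) was run on recovered reads. All 8 genes passed the filter in all 16. Tests are two-sided, p-values are Benjamini-Hochberg adjusted over all genes tested, and a gene was called under 0.05. The fits were checked on simulated data. Alternatives were a pseudocount of 0.1, no filter, a replicate block, edgeR with TMM, RLE or library size only, DESeq2 1.42.0, all 40 libraries in 1 fit and each library left out in turn. R 4.3.3 and Python 3.11.15 were used. Every member was named, with the 3 most similar genes each, at most the 3 genes of smallest p from each list and both cystatins. The members and lists were chosen with earlier results of these data known. Replicate numbers did not pair the samples.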

Additional observations from a re-analysis of the deposited data

Results flagged for a closer look

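In 2 of 64 groups of 5 a library stood apart from the others by Dixon's test, fewer than the 1 in 20 that chance gives. cpr-3 had 21.5 CPM in replicate 2 of old wild type at 20 °C, with the others at 23.7 to 24.2 CPM. cpr-6 had 147 CPM in replicate 4 of old wild type at 15 °C, with the others at 131 to 134 CPM.

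The octr-1 effect differed between conditions in 20 cases by edgeR's test of the interaction, given here as differences of log2 effects with n = 5 libraries in each of 4 groups. For old minus young animals at 20 °C they were -0.39 for cpr-4, -0.39 for cpr-5, -0.59 for cpr-6 and -0.32 for cpz-2. For old animals at 25 °C minus 20 °C they were -2.26 for cpr-1, -0.55 for cpr-3, -1.90 for cpr-5, -1.47 for cpr-6, -0.92 for cpz-1 and -0.53 for cpl-1. For 15 °C minus 20 °C they were 0.61 for cpr-1, -1.08 for cpr-3 and -0.74 for cpz-2. For 15 °C minus 25 °C they were 2.92 for cpr-1, -0.48 for cpr-3, 1.72 for cpr-5, 1.55 for cpr-6, 0.88 for cpz-1, -0.62 for cpz-2 and 0.66 for cpl-1. The old groups also differ in day of adulthood, which cannot be told apart from temperature here.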

How the results depend on the processing

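The count of called members moved by more than 1.5 times in 1 setting that kept all libraries: without a filter on low values, 3 genes in place of 6 were called between old octr-1 and wild type at 15 °C. Leaving out 1 library gave 3 to 7 in that comparison, 3 to 5 in young animals, 5 to 7 in old animals at 20 °C and 8 to 8 at 25 °C. The other ranges were 8 to 8 for wild type at 15 against 20 °C and against 25 °C and for octr-1 at 15 against 20 °C, 6 to 7 for octr-1 at 15 against 25 °C, 7 to 7 for octr-1 at 25 against 20 °C, 7 to 8 for age in wild type, 8 to 8 for age in octr-1 and 6 to 7 for wild type at 25 against 20 °C. For the differences of effects they were 4 to 5 (old minus young), 6 to 6 (25 minus 20 °C), 3 to 3 (15 minus 20 °C) and 7 to 7 (15 minus 25 °C).

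Signs turned mostly where the difference was near 0. cpr-4 in young animals was 0.02 with edgeR and TMM, 0.005 with RLE, 0.093 with library size only, 0.005 with DESeq2, 0.019 with all 40 libraries in 1 fit, and -0.054 to 0.038 with 1 library left out. With library size only, cpz-1 in young animals was 0.053, cpr-1, cpr-4 and cpz-2 with age in wild type were 0.208, 0.19 and 0.475, cpz-2 with age in octr-1 was 0.091, and the 25 minus 20 °C differences of cpr-4 and cpz-2 were 0.096 and 0.074. Without octr-1 replicates 1 and 3 at 15 °C, cpr-1 against wild type was 0.178, cpr-6 against 25 °C was 0.012, the 15 minus 20 °C differences of cpr-4 and cpz-1 were 0.118 and 0.055, and the 15 minus 25 °C difference of cpr-4 was 0.183 (0.01 without a filter). With 1 library left out, cpr-1 at 15 °C ran from -0.089 to 0.047, the 15 minus 20 °C difference of cpr-6 from -0.019 to 0.113 and the 15 minus 25 °C difference of cpr-4 from -0.109 to 0.065. With the column names as given, octr-1 at 25 against 20 °C had 3.947 for cpr-1, -0.048 for cpr-3, 0.92 for cpr-4, 3.716 for cpr-5, 1.552 for cpr-6, 0.527 for cpz-1, -0.584 for cpz-2 and 0.42 for cpl-1. The causes were not tested, apart from the exchanged names.

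Samples with the same replicate number did not deviate together (r of -0.071 to 0.126). With the replicate block, 4 genes were called between genotypes at 15 °C (cpr-4 at adjusted p = 0.102 and cpr-5 at 0.0694 were lost) and 8 with age in wild type (cpz-2 gained), and the counts of the other comparisons did not change.

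Library size as the only scaling also moved the split of calls over all genes by more than 10 percentage points. The share called higher was then 78.5% in place of 44.9% in young animals, where 3 members were higher and 1 lower, 69.8% in place of 48.1% between genotypes at 25 °C (0 and 8), 38.5% in place of 48.9% for octr-1 at 15 against 25 °C (2 and 6), 67.2% in place of 49.9% for octr-1 at 25 against 20 °C (2 and 6), 81.8% in place of 54% with age in wild type (4 and 4), 78.1% in place of 52.9% with age in octr-1 (1 and 5), and 23.7% in place of 39.7% for the old minus young difference (0 and 6).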
